A study of Mus musculus with 18 samples.

Results

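Cells that carried a functional integrin β3 were set against cells that carried an empty vector, both under docetaxel. The comparison used 6 of the 18 RNA sequencing libraries of a study of PyMT-BO1, a mouse breast cancer line described as luminal B-like, on a C57BL/6 background. In all 18 the endogenous integrin β3 gene had been knocked out, and a retrovirus then supplied 1 of 3 inserts. The 6 libraries were chosen by line and treatment alone: 3 cultures rescued with functional human integrin β3 (hβ3) and 3 cultures with the empty vector (pMx), each kept for 24 h in 10 nM docetaxel. Docetaxel is a taxane that binds tubulin and stabilises microtubules. For comparison, the text uses 3 cultures of each of those lines in DMSO, the drug's solvent, and 3 docetaxel cultures of a line with a signalling-deficient mutant integrin β3 (Δβ3). Each construct is represented by 1 line, and the sources used here do not say whether a line is a clone. The cultures were grown in biological triplicate on plastic, so p-values measure the spread between cultures of 1 line, and all that separates the lines beside the insert cannot be told apart from the insert.

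Integrin β3 pairs with αv, or with αIIb in platelets, to form a receptor for extracellular matrix proteins such as vitronectin, osteopontin and fibronectin. It has no enzyme of its own. On ligand binding its cytoplasmic tail recruits talin and kindlin and activates the kinases FAK and Src, which feed MAP kinase, small GTPase and actin signalling. In breast cancer αvβ3 is known for its place in bone metastasis, where tumour cells meet a mineralised matrix and osteoclasts.

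The 3 hβ3 libraries held 13853547, 13698743 and 12338787 counts and the 3 pMx libraries 7972612, 9059479 and 18154008 counts. Rn45s, the ribosomal RNA precursor, took 11.1% to 19.2% of counts in hβ3 and 6.59% to 8.81% in pMx. The luminal keratins Krt8 and Krt18 were high in every one of the 6 libraries, with 1237, 1456 and 1336 CPM in hβ3 and 1255, 1459 and 1415 CPM in pMx for Krt8. CPM is the usual count scaled to library size. Of 12 luminal markers, 5 to 7 had no count in a given library, and the 12 together summed to 2234 to 2526 CPM in hβ3 and 2177 to 2506 CPM in pMx. Transcripts of heart and striated muscle (34 markers) summed to 454, 642 and 1069 CPM in hβ3. In pMx they summed to 2874, 475 and 581 CPM, the highest being culture 1, and 8 to 10 of the 34 had no count in a given library. Of the 19 heart and muscle markers tested, 1 was called lower in hβ3 and none higher. Endothelial markers (8 genes) summed to 14.4 to 25.9 CPM in hβ3 and 57.9 to 94.5 CPM in pMx, and 2 or 3 of them had no count in a library. Most of that sum was Flt1, a receptor for VEGF that was called lower in hβ3 (-2.31 ± 0.17 log2). What these transcripts contribute to the results below was not tested, and in bulk RNA fewer cells of a type and less RNA per cell cannot be told apart. None of the 6 fibroblast, 4 leukocyte, 2 erythroid and 1 basal markers tested was called. Counts without pMx culture 1 are given for several lists.

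The targeted gene was read first. Itgb3 (chromosome 11, 104608000 to 104670476, plus strand, mm10) had 119, 103 and 99.97 CPM in the hβ3 cultures, against 0.635, 0.841 and 0.422 CPM in the pMx cultures. The groups did not overlap and the pMx values rest on 6, 9 and 9 counts. The log2 fold change, hβ3 over pMx, was 7.47 ± 0.17 (SE), edgeR adjusted p = 1.0e-10. The insert is human and reads were counted on the mouse genome, so these values separate the lines but do not measure how much insert RNA the cells made. Itgav, the αv partner, had 691, 685 and 641 CPM in the hβ3 cultures, against 685, 570.4 and 599.8 CPM in the pMx cultures. The groups overlapped and the gene was not called (log2 fold change 0.10 ± 0.07 (SE), edgeR adjusted p = 0.35), but without pMx culture 1 it was, at 0.18 (edgeR adjusted p = 0.012). Itgb1, the most widely used β subunit, was likewise not called, at 0.04 ± 0.08 (SE), edgeR adjusted p = 0.73.

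Over all genes, 3328 of 10912 genes tested were called (30.5%), 1770 higher in hβ3 (16.2%) and 1558 lower (14.3%). A gene was called when the edgeR quasi-likelihood test gave a Benjamini-Hochberg adjusted p under 0.05 over all genes tested. At least 2-fold differences were fewer, with 239 genes higher (2.19%) and 545 lower (4.99%). The median log2 fold change over all genes was -0.02. Without pMx culture 1, the library with the most heart transcripts, 3925 genes were called. When all 18 libraries shared 1 estimate of the spread the count was 1027, and with 16 libraries, leaving out 2 Δβ3 libraries rich in heart transcripts, it was 3378.

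Secreted signals led the genes higher in hβ3 after Itgb3 itself. Wnt7a, a WNT ligand (chromosome 6, 91363981 to 91411363, minus strand), had 76.4, 76.8 and 80.7 CPM in the hβ3 cultures, against 1.06, 0.280 and 0.375 CPM in the pMx cultures, where the pMx libraries held 10, 3 and 8 counts. Its log2 fold change was 7.20 ± 0.23 (SE), edgeR adjusted p = 6.9e-09. Tgfa, a ligand of the EGF receptor (chromosome 6, 86195223 to 86275719, plus strand), had 35.1, 34.6 and 33.6 CPM in the hβ3 cultures, against 3.17, 1.40 and 1.88 CPM in the pMx cultures. In Wnt7a and Tgfa every hβ3 culture was more than 10 times every pMx culture. S100a7a, a calcium-binding protein of stressed skin, had 24.6, 29.5 and 25.5 CPM in hβ3 and 1.59, 1.68 and 1.31 CPM in pMx, a log2 fold change of 4.12 ± 0.16. Siglecg, a sialic acid-binding receptor best known from B cells, stood at 3.51 ± 0.15 log2. Tigit, an inhibitory receptor best known from T cells, stood at 3.27 ± 0.14. Ddah1, which breaks down an inhibitor of nitric oxide synthase, stood at 3.30 ± 0.14. Rnd1, a small GTPase that opposes actin stress fibres, had 32.1, 46.8 and 38.4 CPM in hβ3 and 6.46, 6.26 and 5.30 CPM in pMx. The other members of the 15 largest increases were Zfpm2, Pbp2, Fam198b, Mettl7b, Ankrd1, Sdcbp2 and Aif1l, at log2 fold changes of 2.45 to 2.91. In 2 of these pMx culture 1 was far above the other pMx cultures. Ankrd1, a nuclear and sarcomeric protein abundant in heart, had 383, 439 and 391 CPM in hβ3 and 102, 48.8 and 52.1 CPM in pMx, and Fam198b had 14.2, 14.6 and 11.6 CPM in hβ3 and 4.23, 1.40 and 1.12 CPM in pMx. Without that culture their log2 fold changes were 2.98 and 3.43.

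The genes lower in hβ3 were led by matrix and signalling proteins. Dmp1, an acidic phosphoprotein of bone and dentin that carries an integrin-binding RGD motif (chromosome 5, 104202613 to 104214102, plus strand), had 0.0729, 0.214 and 0.504 CPM in the hβ3 cultures, against 24.4, 32.3 and 28.1 CPM in the pMx cultures. The hβ3 values rest on 1, 3 and 6 counts, against 231, 346 and 600 counts in pMx, so the fitted log2 fold change of -6.78 ± 0.30 depends on few reads. Inhbb, the βB subunit of activin (chromosome 1, 119415465 to 119422248, minus strand), had 10.3, 10.4 and 11.1 CPM in the hβ3 cultures, against 253, 241 and 233 CPM in the pMx cultures. It had the smallest adjusted p of the named genes, with a log2 fold change of -4.54 ± 0.08 (SE), edgeR adjusted p = 9.8e-12. The hβ3 cultures differed by less than 1 CPM, and every one was far below the lowest pMx culture. Piezo2, a stretch-gated ion channel of touch neurons, had 1.17, 1.78 and 1.77 CPM in hβ3 and 26.2, 25.98 and 29.6 CPM in pMx. Nlrp10, a member of the NOD-like receptor family, stood at -5.11 ± 0.49 log2 and Cdh19, a cadherin, at -3.72 ± 0.15. Krt15, a basal keratin, had 2.62, 2.64 and 3.28 CPM in hβ3 and 22.5, 40.8 and 36.8 CPM in pMx. The collagen VI chains Col6a1 and Col6a2, the osteoclast decoy receptor Tnfrsf11b, the protease inhibitor Serpine2, the mineralisation inhibitor Mgp and the matrix protease Mmp3 completed the group with Esyt3 and with Speer4a, a gene with near copies that may share its reads, at log2 fold changes of -4.63 to -3.16. In every one of these genes the hβ3 and pMx ranges did not overlap, which the naming rule required.

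**Figure D1:**
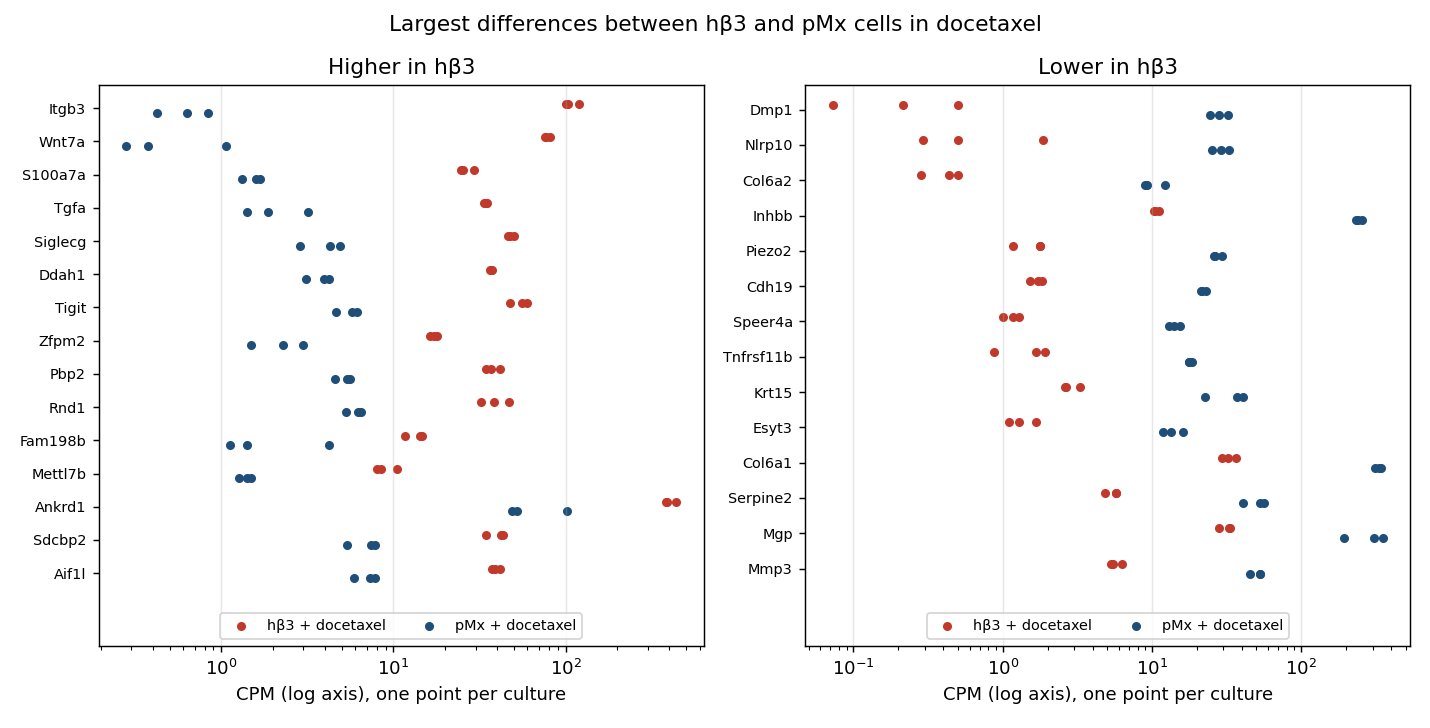
Levels in CPM (log axis) of the 15 genes with the largest increase (left) and 14 of the 15 with the largest decrease (right) in hβ3, one point per culture, hβ3 above pMx within each gene. The lines are apart in every gene shown, and cultures spread most where pMx or hβ3 levels are lowest, with Itgb3 at 99.97 to 119 CPM in hβ3 and 0.422 to 0.841 CPM in pMx.

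**Figure D2:**
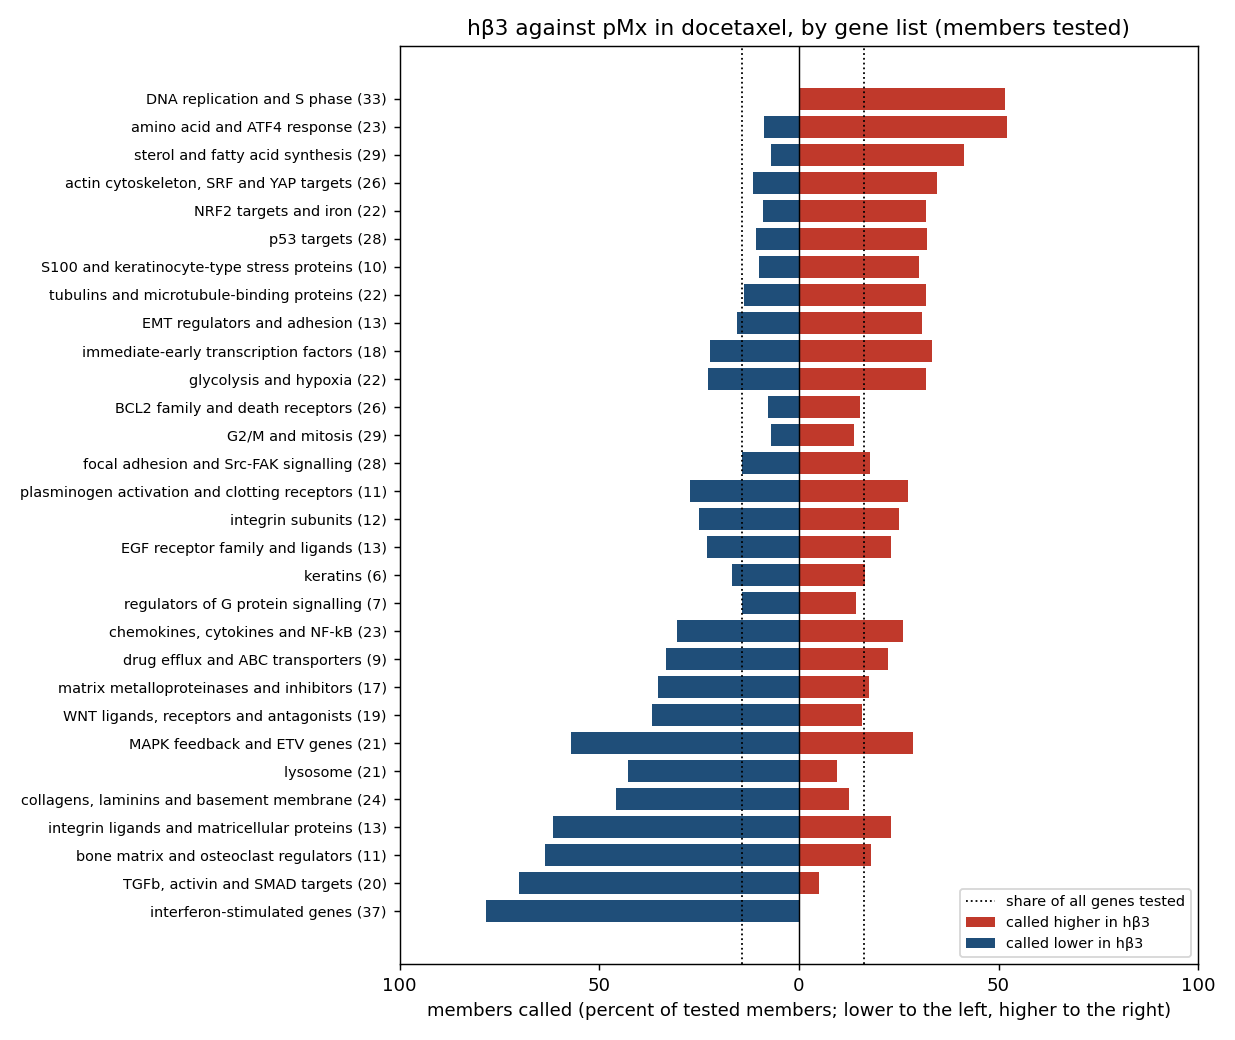
Share of the tested members of each of 30 gene lists called higher (right, red) or lower (left, blue) in hβ3 under docetaxel, with the number tested in parentheses; dotted lines mark the shares over all genes, 16.2% higher and 14.3% lower. Interferon-stimulated genes lie furthest on the lower side (29 of 37) and the amino acid and ATF4 response (12 of 23) and DNA replication genes (17 of 33, none lower) lie furthest on the higher side.

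Among integrin subunits, 3 of 12 tested members were higher and 3 lower, against 16.2% and 14.3% of all genes. Besides Itgb3, the higher ones were Itgb7, a β subunit of lymphocyte homing receptors, with 813, 883 and 868 CPM in hβ3 and 508, 513 and 512 CPM in pMx (0.72 ± 0.06 log2), and Itga3, a subunit of a laminin receptor, at 1.05 ± 0.20. Itga6, another laminin receptor subunit, was lower at -1.27 ± 0.28, and Itga2, a collagen receptor subunit, at -0.45 ± 0.11. Itga1, picked with its values in view, was the other lower one, at -0.64. The lower count was 2 when any 1 culture was left out, and 1 in the 18-library fit. Itgb5, another partner of αv, was not tested.

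The ligands of integrins fell more often than they rose. Of 13 tested integrin ligands and matricellular proteins 8 were lower and 3 higher, against 14.3% and 16.2% of all genes. The median log2 fold change was -1.26. The higher count was 2 when any 1 hβ3 culture was left out, and the 18-library fit gave 7 lower and 1 higher. Thbs2, a matricellular protein that restrains vessel growth (chromosome 17, 14665500 to 14694235, minus strand), had 929, 893 and 912 CPM in the hβ3 cultures, against 4986, 4625 and 4577 CPM in the pMx cultures. Its cultures were tightly grouped within each line, and the log2 fold change was -2.40 ± 0.06 (SE), edgeR adjusted p = 1.4e-10. Wisp2, a CCN family protein, had 4.45, 3.78 and 4.20 CPM in hβ3 and 19.2, 22.9 and 20.4 CPM in pMx. Its relative Cyr61 went the other way with 185, 193 and 176 CPM in hβ3 and 60.3, 59.2 and 53.2 CPM in pMx (1.66 ± 0.07 (SE), edgeR adjusted p = 1.1e-08). Fn1, the fibronectin gene, and Spp1, the osteopontin gene, both chosen after their values were seen, were lower at -1.69 and -1.26.

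Structural matrix genes were more often lower than higher. In the list of collagens, laminins and basement membrane 11 of 24 tested members were lower and 3 higher. Over all genes 14.3% were lower and 16.2% higher. The median of the list was -0.61. Col6a1 (chromosome 10, 76708792 to 76726168, minus strand), which with Col6a2 and other chains forms the beaded filaments of collagen VI, had 29.6, 32.1 and 36.7 CPM in the hβ3 cultures, against 339, 330.0 and 313 CPM in the pMx cultures (-3.35 ± 0.09 (SE), edgeR adjusted p = 1.8e-10). Col6a2 had 0.437, 0.285 and 0.504 CPM in hβ3 and 12.3, 9.25 and 8.91 CPM in pMx. Col4a5, a chain of basement membrane collagen, was lower at -1.62 ± 0.13 and Loxl3, a lysyl oxidase that crosslinks collagen, at -0.94 ± 0.06. Col12a1, a fibril-associated collagen picked with its values in view, was higher at 1.91. Without pMx culture 1 the list had 12 lower and 5 higher members and a median of -0.11, so its median and its higher count moved with that library.

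Enzymes that remodel matrix were mixed. Of 17 tested metalloproteinases and inhibitors 6 were lower and 3 higher, against 14.3% and 16.2% of all genes. Mmp3, stromelysin, had 6.27, 5.34 and 5.46 CPM in hβ3 and 52.5, 52.5 and 45.4 CPM in pMx. Timp3, a matrix-bound inhibitor of metalloproteinases, had 6.997, 7.98 and 7.99 CPM in hβ3 and 61.3, 54.1 and 49.8 CPM in pMx (-2.87 ± 0.12 (SE), edgeR adjusted p = 6.0e-09). Adamts4, an aggrecan-cleaving protease, was lower at -2.48 ± 0.13 and Mmp14, a membrane-anchored collagenase, at -0.70 ± 0.07. The list's median was -0.45, and -0.12 without pMx culture 1, when 5 members were higher. Leaving out any other single culture left 1 higher member. Within plasminogen activation, 3 of 11 tested members were higher and 3 lower. Plat, tissue plasminogen activator, had 9.04, 8.34 and 9.501 CPM in hβ3 and 25.4, 27.1 and 27.1 CPM in pMx. Serpine2, an inhibitor of plasminogen activators and thrombin, was lower at -3.22 ± 0.14 and Serpinb9b, a granzyme inhibitor family member, higher at 1.88 ± 0.12.

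Ligands of growth factor receptors split by gene. Of 13 tested members of the EGF family 3 were higher and 3 lower, against 16.2% and 14.3% of all genes. Besides Tgfa, Hbegf, a membrane-anchored EGF receptor ligand, was higher with 123, 133 and 127 CPM in hβ3 and 65.8, 68.3 and 66.1 CPM in pMx (0.91 ± 0.07 log2). Btc, betacellulin, was lower at -2.99 ± 0.36 and Ereg, epiregulin, at -0.57 ± 0.09. In the WNT list 3 of 19 tested members were higher, near the share of all genes, and 7 lower. Below Wnt7a, Apcdd1, a WNT antagonist at the cell surface, was higher at 0.67 ± 0.06. The WNT receptor Fzd7 was lower at -0.84 ± 0.08 and Lgr6, a receptor for R-spondins, at -1.18 ± 0.11.

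The TGFβ, activin and SMAD list fell in most of its members. Against 14.3% lower and 16.2% higher over all genes, 14 of 20 tested members were lower and 1 higher, with a median of -0.67. Both ligands and inhibitors were among the lower ones. Bmp2, a bone morphogenetic protein (chromosome 2, 133552159 to 133562885, plus strand), had 19.5, 23.4 and 21.4 CPM in the hβ3 cultures, against 165, 172 and 174 CPM in the pMx cultures (-3.01 ± 0.08 (SE), edgeR adjusted p = 2.3e-10). Bambi, a decoy receptor that blocks TGFβ family signals, had 5.39, 5.63 and 5.89 CPM in hβ3 and 26.2, 29.6 and 27.5 CPM in pMx. Id4, a helix-loop-helix protein induced by BMP signals, had 21.1, 24.3 and 23.5 CPM in hβ3 and 188, 195 and 191 CPM in pMx (-3.08 ± 0.08 (SE), edgeR adjusted p = 1.4e-10). Without pMx culture 1 the list had 15 lower members and 1 higher, and in the fit of all 18 libraries 8 and 1.

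The list of MAP kinase feedback and ETV genes fell in most of its members. Feedback genes are induced by ERK and limit it. The list also holds ETV transcription factors and Il1rl1, so its counts are not of feedback genes alone. Of 21 tested members 12 were lower and 6 higher, against 14.3% and 16.2% of all genes, with a median of -0.49. The higher count was 3 without pMx culture 2 or 3, and the 18-library fit gave 5 lower and 1 higher. Dusp6, a phosphatase that acts on ERK, had 278, 298 and 298 CPM in hβ3 and 440.0, 474 and 449 CPM in pMx (-0.67 ± 0.06 (SE), edgeR adjusted p = 5.2e-06). Dusp4, a nuclear phosphatase of MAP kinases, had 340.1, 337 and 321 CPM in hβ3 and 663, 587 and 606 CPM in pMx, and Dusp2, another one, had 6.85, 7.34 and 6.22 CPM in hβ3 and 25.2, 30.7 and 29.5 CPM in pMx. Il1rl1, the receptor for interleukin 33, was lower at -1.30 ± 0.11. Dusp8, chosen after its values were seen, was higher at 1.35, so the phosphatases did not move as 1 group.

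Immediate-early transcription factors were divided between 6 higher and 4 lower of 18 tested members, against 16.2% and 14.3% of all genes. The counts were 9 and 5 without pMx culture 1, 4 and 4 without hβ3 culture 2, and 3 and 1 in the 18-library fit. Fosl1, a component of AP-1, had 88.8, 80.4 and 84.2 CPM in hβ3 and 32.7, 38.4 and 37.5 CPM in pMx (1.20 ± 0.09 log2) and Klf4, a zinc finger factor, 168, 165 and 172 CPM in hβ3 and 107, 109 and 109.7 CPM in pMx (0.60 ± 0.06). Egr1, a serum-response zinc finger factor, had 26.6, 26.6 and 25.4 CPM in hβ3 and 53.2, 75.5 and 66.3 CPM in pMx. Ier5 was lower at -0.43 ± 0.07. In focal adhesions 5 of 28 tested members were higher and 4 lower, shares close to those of all genes. Tns3, a tensin that binds the tail of β integrins, was higher at 1.17 ± 0.11, the caveolae protein Cav1 at 1.15 ± 0.10 and its relative Cav2 at 0.58 ± 0.06, while the tetraspanin Cd9, which associates with integrins, was lower at -0.53 ± 0.07.

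In the list of actin cytoskeleton genes and targets of the actin-responsive factors SRF and YAP, members were more often higher than lower. The list also holds structural genes such as Actn1 and the factors Srf and Yap1, so its counts are not of targets alone. YAP enters the nucleus in spread, tense cells and acts through TEAD proteins on DNA. Of 26 tested members 9 were higher and 3 lower, with a median of 0.23, against 16.2% and 14.3% of all genes. With a filter of 5 CPM on average 7 of 17 were higher and 4 lower, against 1355 and 1428 of 6450 genes. Leaving out hβ3 culture 3 gave 6 higher and 2 lower, and the 18-library fit 3 and 1. Cnn2, a calponin that binds actin, had 539.7, 557 and 526 CPM in the hβ3 cultures, against 129, 131 and 136 CPM in the pMx cultures (2.01 ± 0.06 (SE), edgeR adjusted p = 3.9e-10). Ajuba, a LIM protein of junctions that restrains the LATS kinases, had 84.1, 99.8 and 93.2 CPM in hβ3 and 36.3, 37.9 and 38.2 CPM in pMx. Gadd45b, a stress-response protein, was higher at 1.41 ± 0.17. Nt5e, the ectoenzyme CD73, was among the 3 lower members, with 48.2, 52.2 and 49.9 CPM in hβ3 and 176, 192 and 181 CPM in pMx. Actb, the β-actin gene, was itself higher with 11788, 12323 and 12000.0 CPM in hβ3 and 7578, 7261 and 6979 CPM in pMx (0.70 ± 0.05 (SE), edgeR adjusted p = 1.5e-06). A window of 300 bases around the start (250 before, 50 after) was found in RefSeq's table for 23 of the 26 members. The letters GGAATG, the core recognised by TEAD proteins, occurred on either strand in 13 of them (56.5%), against 14% of the windows of 7605 genes tested. The windows of the 3 called higher members with a match and the smallest adjusted p are printed as examples (GRCm38.p6), with the match in capitals. Crim1, a membrane protein that binds BMPs, is outside the naming rule and was higher at 0.42 ± 0.07. The windows of Ajuba, Crim1 and Ankrd1 lie at chr14:54577612-54577911, minus strand, chr17:78199998-78200297, plus strand and chr19:36119795-36120094, minus strand. A match is a description of letters and not evidence of binding, and members were counted whether or not they were called.
Ajuba: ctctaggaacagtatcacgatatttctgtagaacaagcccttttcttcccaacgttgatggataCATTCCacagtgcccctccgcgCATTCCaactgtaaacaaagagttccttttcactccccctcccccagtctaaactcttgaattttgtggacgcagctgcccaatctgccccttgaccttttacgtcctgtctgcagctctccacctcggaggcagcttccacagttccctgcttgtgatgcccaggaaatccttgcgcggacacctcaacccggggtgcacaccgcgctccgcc
Crim1: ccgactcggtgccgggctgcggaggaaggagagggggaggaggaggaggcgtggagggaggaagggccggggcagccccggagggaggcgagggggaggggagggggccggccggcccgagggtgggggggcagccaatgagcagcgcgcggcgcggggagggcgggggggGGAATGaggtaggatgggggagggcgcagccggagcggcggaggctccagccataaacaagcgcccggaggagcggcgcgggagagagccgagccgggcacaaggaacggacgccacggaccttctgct
Ankrd1: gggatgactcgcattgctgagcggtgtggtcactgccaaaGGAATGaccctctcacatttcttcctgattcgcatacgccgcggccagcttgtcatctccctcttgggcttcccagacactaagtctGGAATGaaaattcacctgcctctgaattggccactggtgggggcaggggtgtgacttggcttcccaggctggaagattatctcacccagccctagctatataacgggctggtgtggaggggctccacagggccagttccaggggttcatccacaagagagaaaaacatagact

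The most one-sided list was that of interferon-stimulated genes. These are switched on when interferons, or the sensing of nucleic acids inside a cell, activate STAT and IRF factors. Of 52 listed genes 37 were tested, 29 were lower in hβ3, none was higher, and the median log2 fold change was -1.21. The share of lower genes over the table was 14.3%. Usp18, a protease that strips ISG15 from its targets and damps interferon signalling (chromosome 6, 121245906 to 121270917, plus strand), had 14.9, 18.3 and 20.8 CPM in the hβ3 cultures, against 70.4, 73.3 and 72.5 CPM in the pMx cultures. Its ranges were far apart, and the log2 fold change was -2.03 ± 0.12 (SE), edgeR adjusted p = 9.0e-08. Gbp2, a guanylate-binding protein that attacks vacuoles of pathogens, had 59.2, 63.6 and 72.8 CPM in hβ3 and 162, 172 and 159.7 CPM in pMx (-1.36 ± 0.09 (SE), edgeR adjusted p = 2.2e-07). Gbp9, a relative whose near copies may share its reads, had 2.77, 3.21 and 4.54 CPM in hβ3 and 24.6, 24.2 and 24.9 CPM in pMx. Lgals3bp, a secreted galectin-binding glycoprotein, had 149, 153 and 168 CPM in hβ3 and 314, 373 and 374 CPM in pMx. Members outside the naming rule, chosen after their values were seen, show the spread. Ifi44 was lower at -2.92 ± 0.44, the ubiquitin-like Isg15 at -1.26 ± 0.28, the nucleic acid sensor gene Ddx58 (RIG-I) at -1.10 ± 0.19 and the factor Stat2 at -0.73 ± 0.20. B2m and H2-D1 of MHC class I were not called, at 0.17 ± 0.24 and 0.13 ± 0.07. Leaving out 1 culture at a time gave 23 to 30 lower members, 30 without pMx culture 1, and the fit of all 18 libraries gave 19.

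Of the 37 interferon-stimulated genes 28 had a window in the RefSeq table. The core of the interferon-stimulated response element, 2 copies of GAAA separated by 2 bases of any kind, occurred on either strand in 13 of the 28 (46.4%), against 3.51% of the windows of 7605 genes tested. Members were counted whether or not they were called, so the share describes the list and not the difference between the lines. A match is not evidence of binding. The 3 lower members with a match and the smallest adjusted p were Gbp2 (chr3:142620413-142620712, plus strand), Trim30a (chr7:104465144-104465443, minus strand) and Oas3 (chr5:120777610-120777909, minus strand), where capitals mark the element. Trim30a and Oas3 are printed for their windows, outside the naming rule. Trim30a is a ubiquitin ligase of innate immunity and Oas3 makes the second messenger that activates RNase L. In Gbp2 and Trim30a the element reads on the opposite strand, and it begins 59, 36 and 75 bases before the start in Gbp2, Trim30a and Oas3. Usp18 had no window there.
Gbp2: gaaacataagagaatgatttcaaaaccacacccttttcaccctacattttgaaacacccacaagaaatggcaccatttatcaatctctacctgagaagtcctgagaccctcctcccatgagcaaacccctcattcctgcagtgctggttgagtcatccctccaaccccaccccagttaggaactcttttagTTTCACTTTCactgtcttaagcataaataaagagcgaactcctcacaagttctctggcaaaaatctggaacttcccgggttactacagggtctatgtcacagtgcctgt
Trim30a: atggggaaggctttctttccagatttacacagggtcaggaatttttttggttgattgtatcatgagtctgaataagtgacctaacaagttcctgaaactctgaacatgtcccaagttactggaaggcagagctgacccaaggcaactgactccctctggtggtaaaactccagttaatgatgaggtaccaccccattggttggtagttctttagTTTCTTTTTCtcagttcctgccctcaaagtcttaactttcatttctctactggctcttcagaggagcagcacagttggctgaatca
Oas3: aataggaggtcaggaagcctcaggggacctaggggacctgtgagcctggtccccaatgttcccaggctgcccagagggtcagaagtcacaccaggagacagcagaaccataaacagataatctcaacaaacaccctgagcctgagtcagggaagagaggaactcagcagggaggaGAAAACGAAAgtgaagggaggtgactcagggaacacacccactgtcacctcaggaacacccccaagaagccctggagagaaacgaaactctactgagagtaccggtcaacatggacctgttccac

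**Figure D3:**
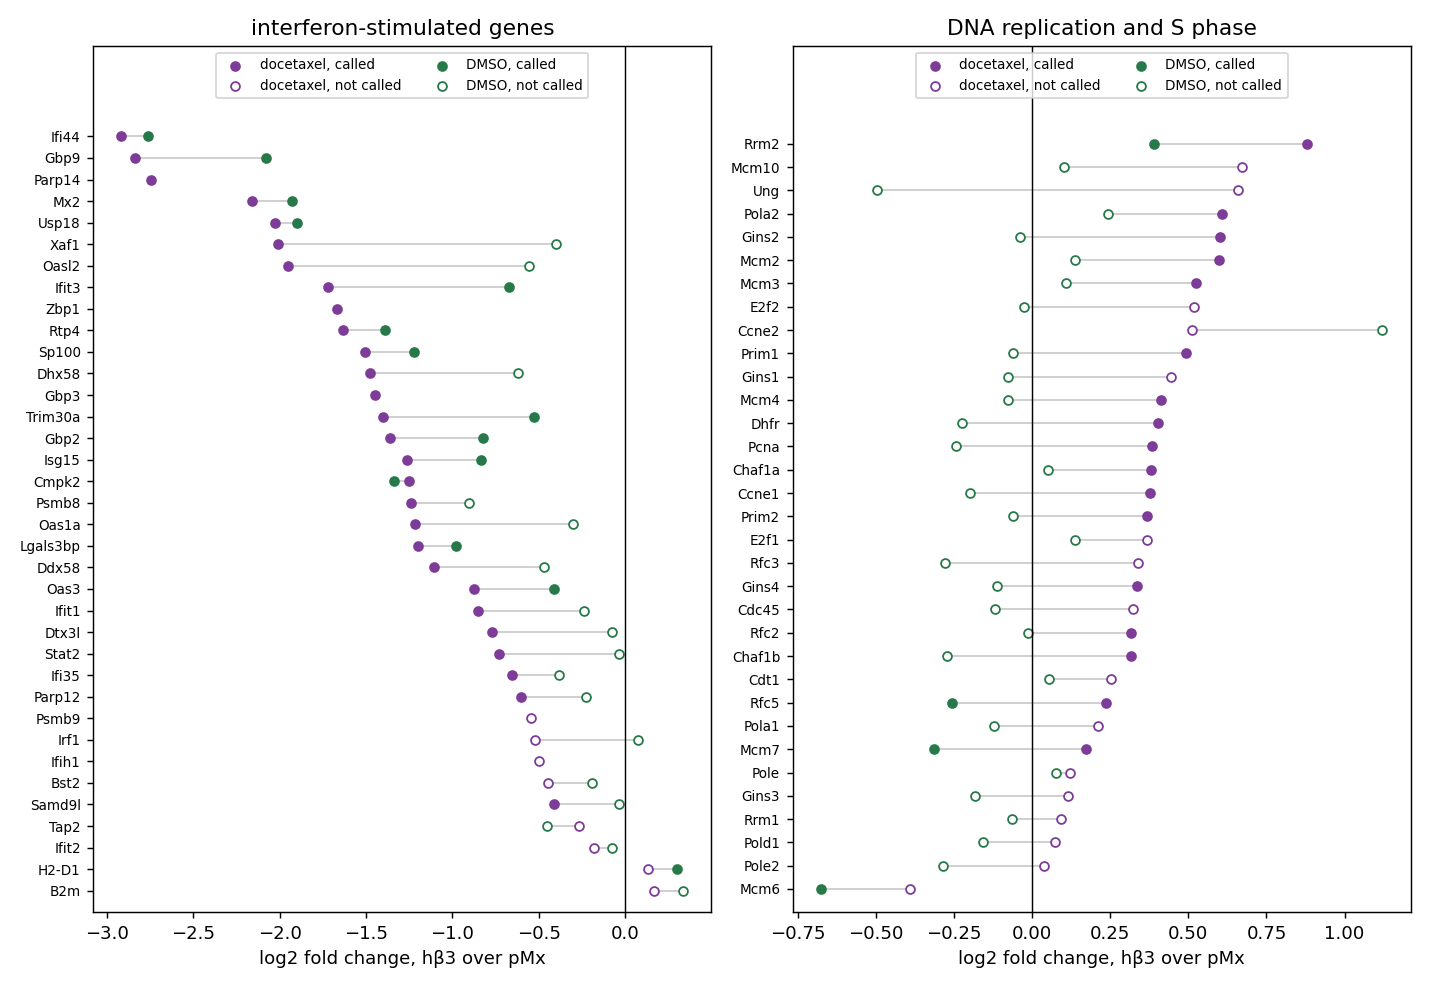
Log2 fold change, hβ3 over pMx, of 36 of the 37 tested interferon-stimulated genes (left) and the 33 DNA replication genes (right) in docetaxel (purple) and in DMSO (green); filled points were called, and a gene with no green point was not tested in DMSO. Over the lists 29 of 37 interferon-stimulated genes were called lower in docetaxel, and 17 of 33 replication genes were called higher, where 1 was called higher in DMSO and 3 lower.

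About as many DNA replication genes were higher in hβ3 as were not called, and none was lower. These genes are expressed in S phase, when E2F factors are released from the retinoblastoma protein, and encode the helicase, polymerases and nucleotide supply of the fork. Of 33 tested members 17 were higher and none was lower, against 16.2% and 14.3% of all genes. The median was 0.37, so the changes were small. With a filter of 5 CPM on average 15 of 25 were higher, against 1355 of 6450 genes. Rrm2, the ribonucleotide reductase subunit that limits nucleotide supply (chromosome 12, 24708241 to 24714146, plus strand), had 421, 436 and 384 CPM in the hβ3 cultures, against 228, 221 and 214 CPM in the pMx cultures (0.88 ± 0.06 (SE), edgeR adjusted p = 7.4e-07). Mcm2, a subunit of the replicative helicase, had 485, 512 and 490.2 CPM in the hβ3 cultures, against 339.9, 318 and 308 CPM in the pMx cultures (0.60 ± 0.06 (SE), edgeR adjusted p = 1.3e-05). Its partners Mcm3 and Mcm4 stood at 0.52 ± 0.06 and 0.41 ± 0.06. Leaving out 1 culture at a time gave 12 to 19 higher members, with 1 lower member when pMx culture 1 was left out, and the fit of all 18 libraries gave 5. Of the 24 members with a window, 10 (41.7%) held TTTCCCGC, TTTGGCGC or TTTCGCGC, forms of the E2F site, on either strand, against 4.40% of 7605 genes. Of those 10, Mcm3 (chr1:20820263-20820562, minus strand) and Mcm7 (chr5:138171834-138172133, minus strand), both helicase subunits, were called higher. Their windows are printed for that reason, with the matches in capitals. All 24 members with a window were counted, called or not, so the 41.7% describes the list and not the difference between the lines. A match is not evidence of binding. Mcm7, picked for its window, was higher by 0.17 ± 0.06 log2 in docetaxel and lower in DMSO, at -0.31 (edgeR adjusted p = 0.004).
Mcm3: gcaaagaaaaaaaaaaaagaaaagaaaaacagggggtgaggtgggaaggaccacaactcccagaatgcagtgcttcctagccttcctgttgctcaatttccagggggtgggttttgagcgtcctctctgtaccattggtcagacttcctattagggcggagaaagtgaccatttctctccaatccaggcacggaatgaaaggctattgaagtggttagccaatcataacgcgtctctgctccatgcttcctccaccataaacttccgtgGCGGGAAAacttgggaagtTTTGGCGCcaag
Mcm7: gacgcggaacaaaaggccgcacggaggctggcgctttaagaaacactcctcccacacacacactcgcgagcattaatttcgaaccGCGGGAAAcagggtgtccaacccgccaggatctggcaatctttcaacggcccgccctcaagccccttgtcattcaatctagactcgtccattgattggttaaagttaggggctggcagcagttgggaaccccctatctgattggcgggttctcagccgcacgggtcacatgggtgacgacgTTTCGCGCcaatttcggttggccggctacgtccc

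Genes of the next phases were mostly not called. Of 29 tested G2/M and mitosis genes 4 were higher and 2 lower, shares below those of all genes. Ccna2, cyclin A2, had 486, 499 and 458 CPM in hβ3 and 406, 391.6 and 378 CPM in pMx (0.27 ± 0.06 log2), and Foxm1, a factor that drives mitotic genes, stood at 0.39 ± 0.07. Cdc20, an activator of the anaphase-promoting complex, stood at 0.32 ± 0.09. Prc1, which bundles microtubules of the central spindle, was lower with 11.95, 12.3 and 12.7 CPM in hβ3 and 19.2, 18.97 and 21.1 CPM in pMx (-0.71 ± 0.11).

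Several genes tied to the drug and to cell death differed. Of 28 tested p53 targets 9 were higher and 3 lower. Perp, a membrane protein of p53-dependent death and of desmosomes, had 215, 232 and 208 CPM in hβ3 and 80.0, 77.3 and 78.4 CPM in pMx (1.45 ± 0.07 (SE), edgeR adjusted p = 1.2e-08). Plk2, a stress-induced kinase, had 135, 137 and 139 CPM in the hβ3 cultures, against 46.4, 48.5 and 46.0 CPM in the pMx cultures (1.52 ± 0.07 (SE), edgeR adjusted p = 1.5e-08), and Ccng1, cyclin G1, 2077, 2134 and 2012 CPM in hβ3 and 1456, 1344 and 1301 CPM in pMx. Pmaip1, the gene of the BH3 protein Noxa that neutralises MCL1, had 31.9, 35.3 and 29.8 CPM in hβ3 and 12.7, 10.0 and 11.5 CPM in pMx (1.48 ± 0.12 (SE), edgeR adjusted p = 1.9e-06). Of 26 tested BCL2 family members and death receptors 4 were higher and 2 lower, shares near or below the 16.2% and 14.3% of all genes, and the 18-library fit called 1 higher and none lower. Bax, which permeabilises mitochondria, and Bid, which activates it, were higher at 0.54 ± 0.11 and 0.36 ± 0.08. Bmf, a BH3 protein linked to the cytoskeleton, was lower at -2.72 ± 0.50, from 7 counts in all hβ3 cultures and 48 in all pMx cultures. The p53 list had 12 higher members without pMx culture 1, 6 without hβ3 culture 2, hβ3 culture 3 or pMx culture 3, and 3, with none lower, in the 18-library fit.

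Among 22 tested tubulins and microtubule-binding proteins, 7 were higher and 3 lower, against 16.2% and 14.3% of all genes. Without pMx culture 1 the counts were 10 and 3, and without hβ3 culture 2 they were 5 and 2. The 18-library fit gave 1 higher and 0 lower. Docetaxel binds β-tubulin. Tubb3, the neuronal βIII isotype, had 188, 208 and 190.1 CPM in hβ3 and 126, 115 and 129 CPM in pMx (0.64 ± 0.07 (SE), edgeR adjusted p = 2.6e-05). Tubb6, another β isotype, was higher at 0.54 ± 0.10 and Tuba1b, an α isotype, at 0.39 ± 0.08, while Stmn1, stathmin, which takes tubulin out of polymer, was lower with 64.1, 70.3 and 58.9 CPM in hβ3 and 82.5, 105 and 95.1 CPM in pMx (-0.57 ± 0.10). Tubb6, Tuba1b and Stmn1 were not called in the 18-library fit. Of 9 tested ABC transporters 2 were higher and 3 lower, against 16.2% and 14.3% of all genes. Abcc1, the drug pump MRP1, had 357, 359.8 and 352 CPM in hβ3 and 278, 245 and 256 CPM in pMx (0.43 ± 0.06). Abcg2, the pump BCRP, was lower with 1.09, 2.64 and 1.60 CPM in hβ3 and 7.83, 6.08 and 5.11 CPM in pMx (-1.83 ± 0.30). The cholesterol exporter Abca1 had 59.8, 54.4 and 61.8 CPM in hβ3 and 182, 156 and 169 CPM in pMx (-1.55 ± 0.08 (SE), edgeR adjusted p = 6.8e-08), and Abca2 was lower at -0.90 ± 0.08.

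Metabolic genes shifted upward in parts. Of 23 tested members of the amino acid and ATF4 response 12 were higher and 2 lower, against 16.2% and 14.3% of all genes. The median was 0.48. ATF4 is the factor made when amino acids run short or proteins misfold. Chac1, which degrades glutathione, had 42.6, 49.0 and 52.2 CPM in hβ3 and 13.0, 13.6 and 13.1 CPM in pMx (1.83 ± 0.11 (SE), edgeR adjusted p = 1.1e-07). Asns, asparagine synthetase, had 319.9, 328 and 297 CPM in hβ3 and 179, 171 and 174 CPM in pMx, Phgdh, the first enzyme of serine synthesis, 393, 437 and 399 CPM in hβ3 and 225, 208 and 214 CPM in pMx and Mthfd2, of the mitochondrial folate cycle, 277, 295 and 256 CPM in hβ3 and 133, 138 and 144 CPM in pMx. All 4 had hβ3 cultures above all pMx cultures. Of 29 tested sterol and fatty acid synthesis genes 12 were higher and 2 lower, with small changes such as Fads2 at 0.70 ± 0.08 and Msmo1 at 0.46 ± 0.06. The sterol enzyme Nsdhl stood at 0.47 ± 0.08. The 18-library fit called 1 of these 29.

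Of 22 tested NRF2 targets and iron genes 7 were higher and 2 lower, against 16.2% and 14.3% of all genes. Hmox1, haem oxygenase, had 143, 150.1 and 142 CPM in hβ3 and 44.3, 47.4 and 50.2 CPM in pMx (1.59 ± 0.07 (SE), edgeR adjusted p = 1.6e-08), Gclm, of glutathione synthesis, stood at 0.57 ± 0.07 and Pgd, of the pentose phosphate path, at 0.41 ± 0.05. Slc40a1, ferroportin, the only known iron exporter, was lower with 5.54, 3.56 and 4.96 CPM in hβ3 and 26.5, 20.9 and 22.5 CPM in pMx (-2.34 ± 0.17). In glycolysis and hypoxia 7 of 22 were higher and 5 lower. Pgam1 and Pgk1, glycolytic enzymes, stood at 0.91 ± 0.06 and 0.68 ± 0.06, Pfkl at 0.47 ± 0.06, and Ndrg1, a hypoxia-induced gene, at 0.71 ± 0.08. Gapdh held only 11 to 54 counts in a library, so its level is not measured here. Of 21 tested lysosomal genes 9 were lower and 2 higher. The protease Ctsb had 1441, 1413 and 1363 CPM in hβ3 and 2378, 2413 and 2400.0 CPM in pMx (-0.79 ± 0.05 (SE), edgeR adjusted p = 3.6e-07), Ctsl stood at -0.73 ± 0.08 and the membrane protein Scarb2 at -0.55 ± 0.08.

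Genes that act on bone were mainly lower, with 7 of 11 tested members lower, 2 higher and a median of -0.94. Tnfrsf11b, osteoprotegerin, which blocks the osteoclast factor RANKL, had 0.875, 1.92 and 1.68 CPM in hβ3 and 17.8, 17.7 and 18.5 CPM in pMx (-3.61 ± 0.22 (SE), edgeR adjusted p = 1.5e-07). Mgp, an inhibitor of calcification, had 28.1, 33.2 and 32.9 CPM in hβ3 and 192, 352 and 307 CPM in pMx, and Ank, a pyrophosphate transporter, 726, 742 and 745 CPM in hβ3 and 1446, 1374 and 1340.3 CPM in pMx. Dmp1 and Bmp2 also belong to that list. The 2 higher members, chosen after their values were seen, were Csf1, a growth factor of osteoclast precursors (1.58), and Pthlh, parathyroid hormone-related protein (0.71). Chemokines and other inflammatory genes were split, 6 higher and 7 lower of 23 tested, against 16.2% and 14.3% of all genes. Ptgs2, cyclooxygenase 2, had 692, 688 and 663 CPM in the hβ3 cultures, against 243, 251 and 256 CPM in the pMx cultures (1.42 ± 0.06 (SE), edgeR adjusted p = 5.0e-09). Cx3cl1, a membrane-bound chemokine, had 18.3, 16.6 and 17.2 CPM in hβ3 and 39.6, 47.0 and 45.0 CPM in pMx, and Vcam1, an adhesion molecule for leukocytes, 48.5, 51.0 and 43.9 CPM in hβ3 and 134, 143 and 131 CPM in pMx.

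The remaining lists held few tested members, so their counts say little beside the 16.2% higher and 14.3% lower over all genes. Of 10 S100 and keratinocyte-type genes 3 were higher and 1 lower. S100a11 stood at 1.57 ± 0.29, with 241, 191 and 234 CPM in hβ3 and 45.9, 85.9 and 88.0 CPM in pMx, S100a3 at 0.93 ± 0.12 and S100b at -2.07 ± 0.27. S100a11 was not called in 4 of the alternative fits. Of 7 regulators of G protein signalling Rgs16 was higher at 1.55 ± 0.18 and Rgs2 lower at -0.98 ± 0.12. Rgs5, a pericyte gene, was not called at -2.10 ± 0.65 (SE), edgeR adjusted p = 0.083, with 8.38, 11.8 and 21.3 CPM in hβ3 and 101, 37.8 and 36.3 CPM in pMx, where pMx culture 1 was the highest. Rgs4 was not called at -1.03 ± 0.38. Of 6 keratins Krt80 was higher at 0.62 ± 0.08 and Krt15 lower, and Krt7 and Krt10 were not called (-0.65 ± 0.41 and 0.28 ± 0.25). Of 13 regulators of epithelial-mesenchymal transition 4 were higher and 2 lower. Cldn1, a tight junction protein, had 17.2, 13.8 and 14.6 CPM in hβ3 and 2.86, 2.34 and 4.31 CPM in pMx (2.19 ± 0.21 (SE), edgeR adjusted p = 8.8e-06), the N-cadherin gene Cdh2 stood at 0.71 ± 0.07, Snai2 at 0.86 ± 0.17 and Twist2 at -0.84 ± 0.13.

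The same lines were compared in DMSO, on 6 libraries that the docetaxel comparison does not share. Rn45s took 27.5%, 10.9% and 33.0% of counts in the hβ3 DMSO cultures and 9.81%, 9.43% and 8.36% in the pMx DMSO cultures. Heart and muscle markers summed to 732, 830.5 and 500.1 CPM in hβ3 and 2601, 1834 and 739.7 CPM in pMx in DMSO, and what they contribute was not tested. In DMSO 2835 of 10792 genes tested were called (26.3%), 1448 higher (13.4%) and 1387 lower (12.9%). With Rn45s left out of the counts 2829 genes were called in DMSO and 3320 in docetaxel. What else the Rn45s shares reflect was not tested. Of 10465 genes tested under both treatments, 3240 were called in docetaxel and 2781 in DMSO, and 1855 were called in the same direction in both. That is 57.3% of the docetaxel calls and 66.7% of the DMSO calls. The opposite direction was called for 18 genes. Wnt7a had a log2 fold change of 8.15 (edgeR adjusted p = 3.7e-13) in DMSO, Inhbb -4.62 (edgeR adjusted p = 1.8e-11) and Thbs2 -3.20 (edgeR adjusted p = 8.7e-13). Of 32 interferon-stimulated genes tested in DMSO 13 were lower and 1 higher, with a median of -0.46. Of 34 replication genes 1 was higher and 3 lower, with a median of -0.07.

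Whether the difference between the lines itself depended on treatment was tested as an interaction over these 12 libraries, docetaxel minus DMSO. It was called for 213 of 11646 genes (1.83%), 106 with a higher log2 fold change in docetaxel (0.91%) and 107 with a lower one (0.919%). Replication genes held 12 of the 106: of 34 tested members 12 were called in the positive direction and none in the negative. Mcm2 had 633, 644 and 628 CPM in hβ3 and 573, 584 and 553 CPM in pMx in DMSO, groups close to each other, against the separated docetaxel values above (interaction 0.47 ± 0.09 (SE), edgeR adjusted p = 0.0099). Rrm2, Mcm3 and Mcm4 were called as well. Of 37 interferon-stimulated genes 4 were called, all negative, so for the other 33 a different effect in docetaxel was not shown. They were Dtx3l, Ifit1, Trim30a and Gbp2, the last at -0.53 ± 0.13 (SE), edgeR adjusted p = 0.036. The Gbp2 call was lost when any one of 9 of the 12 libraries was left out. For Usp18 the interaction was not called, at -0.13 ± 0.25 (SE), edgeR adjusted p = 0.87. The count of 213 depended on single libraries, being 58 without pMx DMSO culture 2, 73 without hβ3 docetaxel culture 2, 78 without pMx docetaxel culture 3 and 395 without hβ3 DMSO culture 2.

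Genes with the largest interactions included some whose direction turned. Apcdd1 was higher in hβ3 in docetaxel (0.67 ± 0.06) and lower in DMSO (-0.38). In docetaxel it had 189.8, 187 and 186 CPM in hβ3 and 119.8, 109.8 and 118 CPM in pMx, and in DMSO 153, 173 and 169 CPM in hβ3 and 208, 216 and 212 CPM in pMx (interaction 1.05 ± 0.10 (SE), edgeR adjusted p = 7.0e-06). Prkar2b, a regulatory subunit of protein kinase A, turned in the same way, at 0.32 ± 0.09 in docetaxel and -0.81 (edgeR adjusted p = 8.0e-05) in DMSO. Rnf213, a large ubiquitin ligase, turned in the other way, with 30.8, 29.9 and 33.2 CPM in hβ3 and 50.7, 44.3 and 48.8 CPM in pMx in docetaxel and 47.2, 33.5 and 43.8 CPM in hβ3 and 20.7, 23.3 and 22.1 CPM in pMx in DMSO (interaction -1.53 ± 0.17 (SE), edgeR adjusted p = 3.3e-05). Itga2 and BC075659 did so as well, at -0.45 and -0.44 in docetaxel and 0.89 and 1.01 in DMSO, each called in both treatments.

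In other genes the direction did not turn by a call in both treatments. Plk2 had 192, 202 and 191 CPM in hβ3 and 24.8, 25.1 and 22.2 CPM in pMx in DMSO, so the lines were further apart there than in docetaxel (interaction -1.47 ± 0.11 (SE), edgeR adjusted p = 2.7e-07). Mettl7b had 8.45, 8.05 and 10.4 CPM in hβ3 and 1.27, 1.496 and 1.41 CPM in pMx in docetaxel and 19.6, 19.7 and 17.5 CPM in hβ3 and 7.96, 7.58 and 8.12 CPM in pMx in DMSO, a larger ratio in docetaxel (1.41 ± 0.23 (SE), edgeR adjusted p = 0.003). Mctp2, a membrane protein with C2 domains, was lower in both, at -1.80 log2 in docetaxel and -3.38 in DMSO. Scara5, a ferritin receptor, stood at -2.88 and -4.14, and Nxph3, a neurexophilin, at -1.57 and -2.58. Egr1 and Rgs2 were called lower in docetaxel, at -1.34 and -0.98, and were not called in DMSO, at 0.32 and 0.16. Tubb2b, a β-tubulin isotype, had 10.8, 14.8 and 13.6 CPM in hβ3 and 11.1, 10.4 and 10.5 CPM in pMx in docetaxel, where it was not called, and 8.17, 8.87 and 7.24 CPM in hβ3 and 2.34, 1.59 and 2.19 CPM in pMx in DMSO (interaction -1.71 ± 0.25 (SE), edgeR adjusted p = 0.001).

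**Figure D4:**
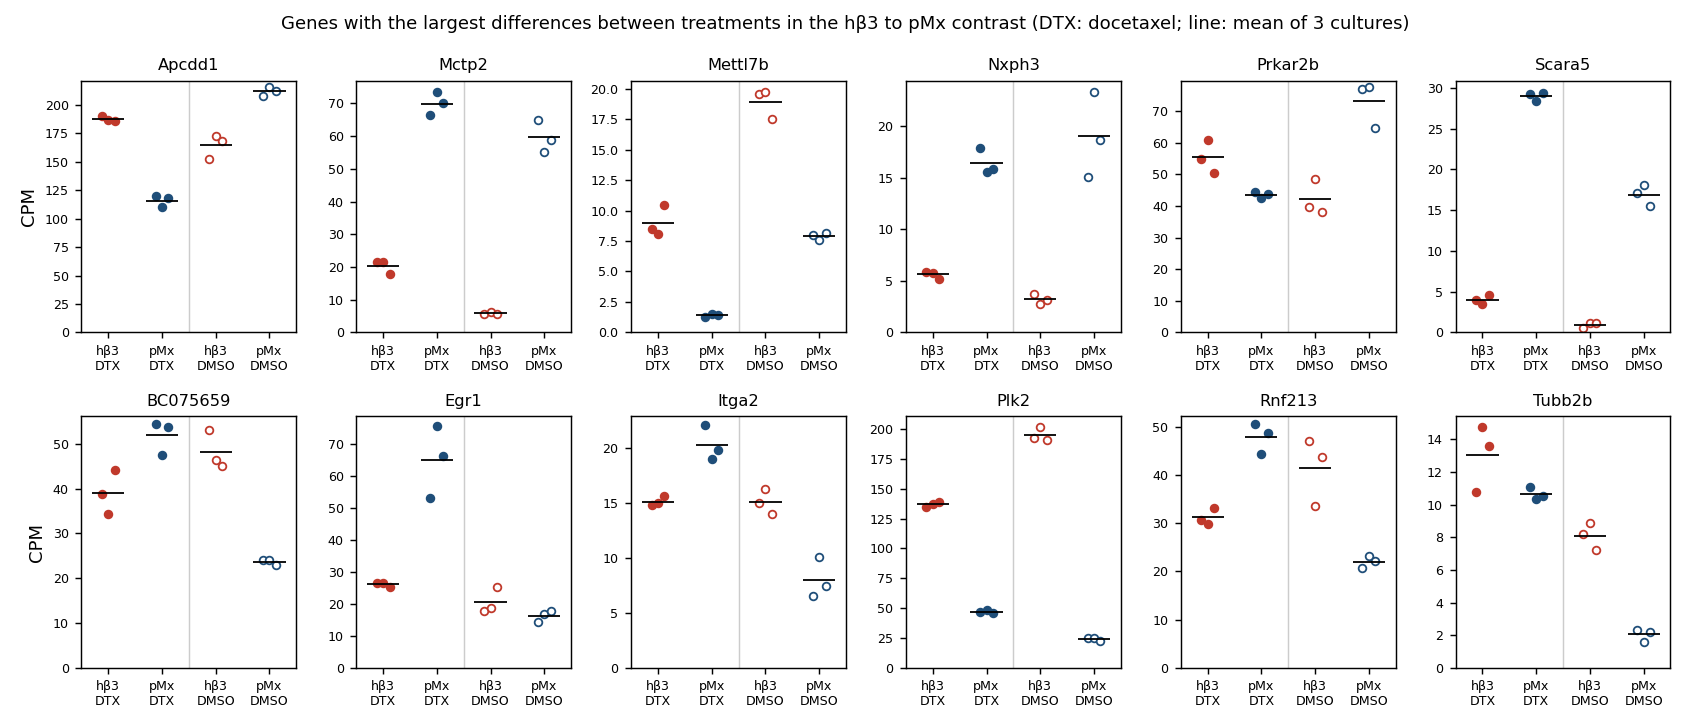
CPM (linear axes from 0) of the 12 genes with the largest called interactions, 6 positive (top) and 6 negative (bottom), in hβ3 and pMx cultures under docetaxel (filled) and DMSO (open); points are cultures and lines are means of 3. Apcdd1 shows the turn of direction, with hβ3 at 186 to 189.8 CPM above pMx in docetaxel and below it in DMSO.

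A last comparison set hβ3 against Δβ3 in docetaxel, with pMx in the same fit of 9 libraries. It shares the hβ3 libraries with the main comparison, so values are given side by side and no agreement between them is counted. Of 11284 genes tested 855 were called (7.58%), 421 higher in hβ3 (3.73%) and 434 lower (3.85%). Culture 2 of Δβ3 stood apart, with 52696 CPM of heart and muscle markers, against 572 and 721 CPM in cultures 1 and 3, and its Itgb3 was 32.9 CPM, against 114 and 108 CPM in the other two. Without it 2640 genes were called, and 2 named genes turned sign and were then called, Ankrd1 (-0.46 with it, edgeR adjusted p = 0.85, and 3.21 without it, edgeR adjusted p = 0.0031) and Fam198b (-1.28, edgeR adjusted p = 0.6, and 2.93, edgeR adjusted p = 0.0035). Itgb3 (0.33 and -0.04), Krt10 (-0.28 and 0.07) and Tubb2b (0.27 and -0.009) also turned sign but were called in neither fit. Leaving out any 1 hβ3 culture gave 254 to 268, and leaving out Δβ3 culture 3, pMx culture 2 or pMx culture 3 gave 525, 530 and 510.

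In the 12 genes plotted for the 3 lines, chosen with values in view, Δβ3 cultures 1 and 3 lay nearer to pMx than to hβ3. Wnt7a had 0.499, 13.8 and 0.359 CPM in Δβ3 cultures 1 to 3, and the hβ3 over Δβ3 log2 fold change was 4.02 (edgeR adjusted p = 0.13), or 7.45 (2.0e-11) without culture 2. Tgfa had 2.81, 10.1 and 2.24 CPM and S100a7a 1.81, 5.91 and 2.51 CPM, with culture 2 the highest in each. Inhbb had 245, 225 and 211 CPM, Id4 206, 179.9 and 206 CPM and Chac1 14.2, 16.5 and 12.9 CPM, where all 3 Δβ3 cultures lay on the pMx side. Their hβ3 over Δβ3 log2 fold changes were -4.44, -3.13 and 1.70 (edgeR adjusted p = 2.2e-07, 1.1e-06 and 0.00039). Usp18 had 76.3, 29.7 and 67.9 CPM (log2 fold change -1.70, edgeR adjusted p = 0.01) and Mcm2 347, 259 and 331 CPM (0.65, edgeR adjusted p = 0.011). Cyr61 had 78.4, 170.5 and 82.1 CPM. It was not called with all cultures (0.71, edgeR adjusted p = 0.17) and stood at 1.21 (edgeR adjusted p = 1.6e-08) without culture 2.

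**Figure D5:**
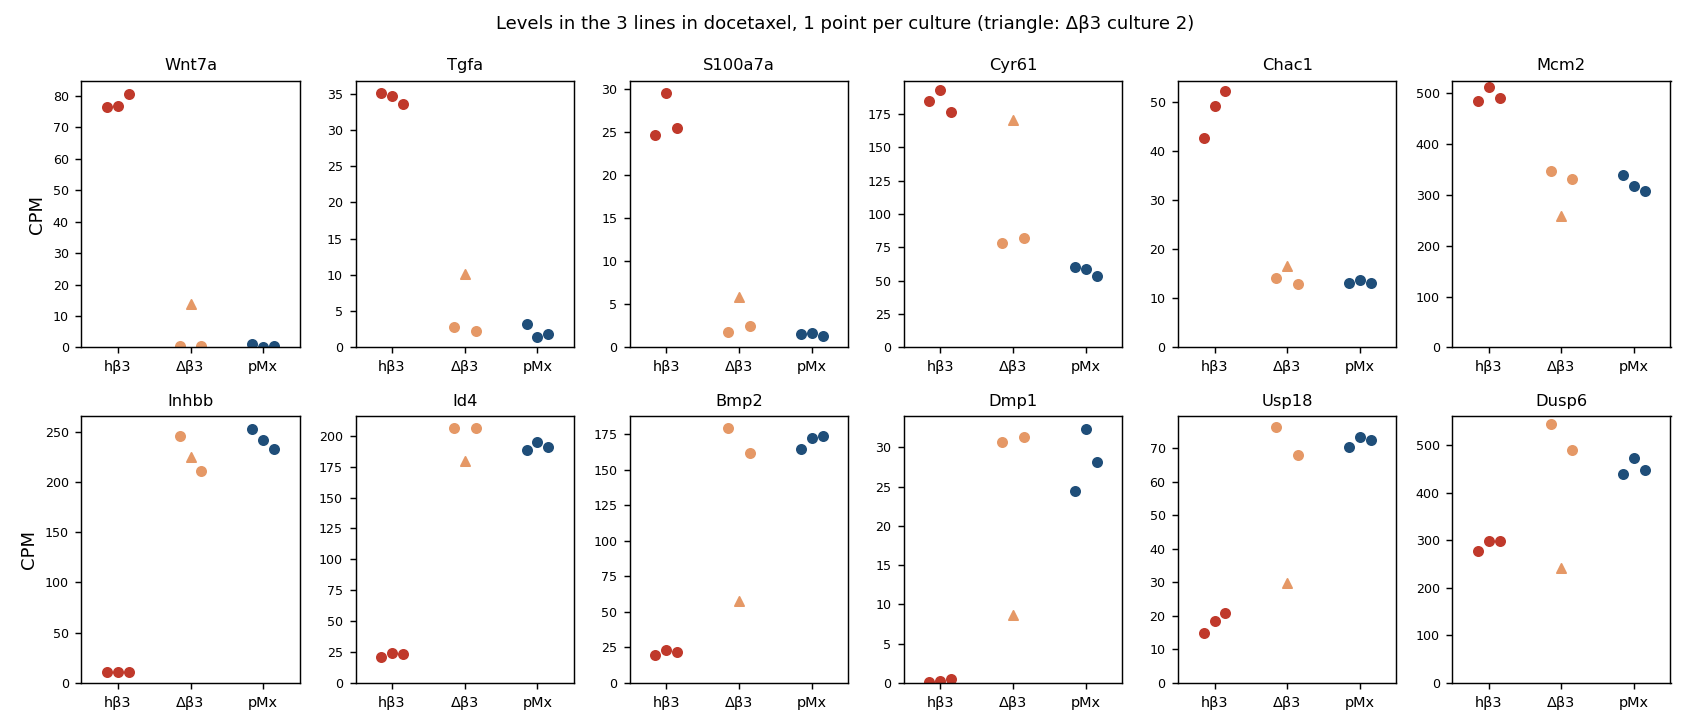
CPM (linear axes from 0) of 12 named genes in docetaxel in hβ3, Δβ3 and pMx, one point per culture; the triangle is Δβ3 culture 2, which carried heart transcripts. Δβ3 circles lie nearer to pMx than to hβ3 in each of the 12, and the triangle departs from them in several, such as Bmp2 at 57.8 CPM.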

How the data were processed

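Read counts per transcript model were deposited by the authors. Per the submitters' processing notes, FastQC, HISAT2, featureCounts and mm10 were used, with no versions given. Per the labels' protocols, ribosomal RNA was depleted from 1 µg of total RNA, and libraries were amplified for 13 cycles and read single-end for 50 bases. The deposited length column, in bases, did not enter any test. No source used here states a strand setting, so antisense and overlapping genes cannot be told apart.

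From these, 63759 models were summed to 32699 gene symbols. edgeR 4.0.16 (R 4.3.3; filterByExpr, TMM, robust quasi-likelihood) tested hβ3 against pMx on 6 libraries per treatment, their difference on 12 and hβ3 against Δβ3 on 9. The SE printed with an edgeR log2 fold change is its absolute value divided by the square root of the test's F statistic. CPM used TMM scaling over all 18 libraries. DESeq2 1.42.0 and the other alternatives are in the closing section. Simulated data with known changes were used to test the scripts.

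Named genes were the 15 largest called changes per direction with a mean of at least 5 CPM, protein-coding annotation and ranges that did not overlap. Added were up to 4 members of each of 30 lists by smallest p, the 6 largest interactions per direction, and a preset of Itgb3, Itgav, Itgb1, Itgb5, Plk2, Apcdd1, S100a7a, Rgs2, Actb and Gapdh. Members and lists were chosen with earlier results of these data known. Promoter sequences come from RefSeq (GRCm38.p6). Results for a few named genes are not reported here.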

Additional observations from a re-analysis of the deposited data

Results flagged for a closer look

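The log2 difference between hβ3 and pMx, docetaxel minus DMSO, was called by edgeR (adjusted p under 0.05) for 35 of the named genes, 34 of which are given here, by a test of the difference itself. Several calls rest on single libraries: of 21 alternatives Pbp2 was not called in 12, Dusp4, Gbp2 and Nxph3 in 10 each, Rrm2 in 6, Ptgs2 and Scara5 in 5 each and Mcm3 in 4. The other 26 were not called in 0 to 3. Negative values mean a lower ratio of hβ3 to pMx in docetaxel.

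Among signalling and stress genes the difference was -1.65 for Egr1, -1.47 for Plk2, -1.13 for Rgs2, -1.05 for Pmaip1, -0.9 for Ndrg1, -0.69 for Klf4, -0.49 for Ptgs2 and -0.41 for Dusp4. Among tubulins it was -1.71 for Tubb2b and -0.65 for Tubb3. Among genes of matrix and adhesion it was -1.33 for Itga2, -0.92 for Timp3 and -0.82 for Cyr61. Rnf213, BC075659 and Gbp2 stood at -1.53, -1.44 and -0.53.

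Positive values included the replication genes Mcm3 (0.42), Mcm2 (0.47), Mcm4 (0.5) and Rrm2 (0.5), and the folate enzyme Mthfd2 (0.68). Matrix and membrane genes with positive values were Loxl3 (0.71), Cav2 (0.73), Thbs2 (0.81) and Mmp3 (0.92). Id4 stood at 0.8, Pbp2 at 0.68, Siglecg at 0.97, Nxph3 at 1.02, Apcdd1 at 1.05, Prkar2b at 1.14, Scara5 at 1.27, Mettl7b at 1.41 and Mctp2 at 1.58.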

How the results depend on the processing

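For hβ3 against pMx in docetaxel, 3328 genes were called, 2404 to 3925 with 1 culture left out, and 1027 when all 18 libraries set the spread. In DMSO 2835 genes were called, 1970 to 3028 with 1 culture left out, and 1095 in the 18-library fit. The difference between treatments gave 213 genes, against 463 with DESeq2, 325 without a filter on low counts, 350 with the replicate block, 2 in the 18-library fit and 58 to 395 with 1 culture left out. For hβ3 against Δβ3 the count was 855, against 1610 with DESeq2, 529 without a filter, 535 with the replicate block, 2460 in the fit of 16 libraries, and 254 to 2640 with 1 culture left out. The cause of these moves was not tested. No call of hβ3 against pMx among the named genes reversed in direction in docetaxel or in the difference between treatments. With a filter of 5 CPM the docetaxel calls were 1355 higher and 1428 lower of 6450 genes tested, against 1770 and 1558 of 10912. Without pMx culture 1 the median log2 fold change of the heart and muscle markers was 0.61, against -1.19, and that of the fibroblast markers 0.49, against -0.64. Of 138 named genes called in docetaxel, 32 were not called in the 18-library fit and 0 to 2 in any other alternative. Of the 35 called interactions among named genes, 33 were not called in the 18-library fit, 12 without pMx DMSO culture 2, 9 without pMx docetaxel culture 3, 8 without hβ3 docetaxel culture 2 and 0 to 5 elsewhere (DESeq2 gave no value for 1). With the replicate block 3367 genes were called in docetaxel. Deviations of same-numbered hβ3 and pMx docetaxel cultures had correlations of -0.34, 0.26 and -0.39 over 6291 genes. Cultures of unlike numbers had -0.47 to 0.50. With only 3 cultures per group, centred on their own mean, these values cannot show whether the numbers pair the cultures. With 3 cultures per line, changes in genes of few counts, such as Dmp1 and Bmf, are the least precise.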
